A study of Homo sapiens with 15 samples.

Results

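The genes described here make and repair DNA: 51 genes of DNA replication, nucleotide supply and recombination, out of 4872 genes in the deposited tables. They were chosen by name and matched on the gene symbol, and they fall into 5 steps: origin licensing and helicase (16 genes), polymerases and clamp (13), nucleotide synthesis (5), Fanconi and recombination (12), and checkpoint, chromatin copying and E2F control (5). The cells are WI-38, a line of normal human fetal lung fibroblasts that stops dividing after a limited number of passages. RNA sequencing of 15 libraries gave 5 groups of 3. The younger group stood at PD30, read as 30 population doublings, and was labelled DMSO (a solvent) and lipo3000 (a transfection reagent). The control stood at PD45, was described as senescent, and was labelled DMSO and lipo3000 with NC, read as a control siRNA. PD45 cells labelled siSRC2 or siSRC4 in the titles carried lipo3000 with siSRC, an siRNA against the kinase gene SRC, and DMSO. PD45 cells with GW8510, a kinase inhibitor known to act on cyclin-dependent kinases, carried lipo3000 with NC and no DMSO label. Passage and NC therefore cannot be told apart in the PD30 comparison, nor GW8510 and the absence of DMSO in the GW8510 comparison. All groups are 1 cell line. The labels do not say whether the 3 libraries of a group are separate cultures, and the p-values below reflect only how these libraries vary, which may be technical.

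DNA is copied once per cell cycle. Origins are first licensed when ORC, CDC6 and CDT1 load the MCM2-7 helicase, and CDC45 and the GINS complex then switch the helicase on. Polymerases alpha, delta and epsilon copy the strands behind it on the sliding clamp PCNA, which the RFC complex loads, while ribonucleotide reductase, thymidylate synthase and thymidine kinase supply the deoxynucleotides. Fanconi and recombination proteins protect and repair stalled or broken forks. Many of these genes are transcribed under E2F factors as cells leave G1, and cells that have stopped dividing in culture are known to hold little of their mRNA.

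Each deposited table compares 1 group with the PD45 control and holds only the genes that the authors listed, those with an adjusted p below 0.05 and a 1.5-fold or larger change up or down. Absence from a table does not show that a gene stayed the same. Values are the deposited normalized signal, whose type (TPM or FPKM) is not given in the sources used here, so that read depth is unknown. Signals are compared for 1 gene across libraries, apart from sums over cell type markers, and never between different genes. Ratios of different genes are ranked below, and those ranks were not tested. The listed genes were re-tested with limma on log2(signal + 1), where the mean signal was at least 1. Markers of the labelled cell type could be checked only where listed: of 10 fibroblast markers, COL3A1, VIM and PDGFRA were listed for PD30, with a summed signal of 5571 to 5989 at PD30 and 3299 to 3483 in the control. Of 6 epithelial markers KRT8, KRT18 and KRT19 were listed, all lower at PD30 (50.8 to 56.5 summed, against 162 to 188), TEK was the 1 of 5 endothelial markers, higher, the smooth muscle genes ACTA2 and CNN1 (2 of 4) were lower, and no leukocyte marker was listed. The part of these differences in the results below was not tested.

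Many promoters of these genes, though not all, hold a short sequence that the choice of members did not use. RefSeq promoter windows of GRCh38.p14, from 250 bases before to 50 after a gene's start, were matched by symbol for 47 of the 51 genes, in 65 windows. An E2F site, searched as TTTCCCGC, TTTGGCGC, TTTCGCGC or TTTGCCGC on both strands, was found in 27 of the 65 windows (41.5%), against 3.31% of all 35116 windows. By gene, 26 of 47 members had a match in some window (55.3%), against 5.40% of 15843 protein-coding genes and 7.64% of 1047 other genes listed as higher at PD30. The share was 9 of 13 for licensing and helicase genes, 7 of 13 for polymerases and clamp, 2 of 5 for nucleotide synthesis, 4 of 11 for Fanconi and recombination and 4 of 5 for the control genes. A match describes letters in a window and shows no binding.

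The following stretches of 30 bases show the E2F match nearest the start in the 7 members that were later listed for GW8510 and hold a match, then in 5 members listed for PD30 and not for GW8510. They are written 5′ to 3′ on the strand of the gene, with the matched letters in capitals.
E2F1, chr20:33686387-33686416, minus strand: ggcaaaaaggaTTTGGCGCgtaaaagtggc
CDT1, chr16:88803743-88803772, plus strand: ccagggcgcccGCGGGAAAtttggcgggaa
GINS2, chr16:85688967-85688996, minus strand: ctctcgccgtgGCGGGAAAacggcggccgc
CDC6, chr17:40287875-40287904, plus strand: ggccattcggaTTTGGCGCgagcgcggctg
GINS1, chr20:25407667-25407696, plus strand: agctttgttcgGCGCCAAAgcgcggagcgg
CLSPN, chr1:35769965-35769994, minus strand: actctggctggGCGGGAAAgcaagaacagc
FANCA, chr16:89816801-89816830, minus strand: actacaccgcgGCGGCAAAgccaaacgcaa
MCM2, chr3:127598402-127598431, plus strand: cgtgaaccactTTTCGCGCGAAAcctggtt
MCM3, chr6:52284728-52284757, minus strand: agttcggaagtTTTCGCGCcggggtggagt
MCM6, chr2:135876511-135876540, minus strand: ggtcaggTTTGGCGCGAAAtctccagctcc
MCM7, chr7:100101388-100101417, minus strand: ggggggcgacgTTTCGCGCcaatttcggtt
PCNA, chr20:5126663-5126692, minus strand: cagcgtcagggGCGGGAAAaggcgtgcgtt
In MCM2 and MCM6 a pair of matches on opposite strands overlaps into 1 longer run. The window of the start farthest upstream held 32 matches in 25 genes, and 23 of the 32 began no more than 70 bases before the start or after it.

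The CCAAT box, the binding sequence of the factor NF-Y, was searched as CCAAT on both strands. It was found in 37 of 65 member windows (56.9%) and in 34.6% of all windows. By gene it was present in 12 of the 14 members listed for GW8510 and in 16 of the 33 matched members that were not (85.7% and 48.5%), against 42.1% of protein-coding genes. The E2F site was present in 7 of those 14 and 19 of those 33 (50% and 57.6%). The CHR element of mitotic genes, searched as TTTGAA or TTCGAA on both strands, was found in 4 of the 65 windows (6.15%), against 16.4% of all windows. The 120 bases before the start are shown for CLSPN, which was listed as higher with GW8510, for RRM1, which fell with it, and for MCM6, which was not listed for it, with E2F and CCAAT matches in capitals.
CLSPN, chr1:35769979-35770098, minus strand: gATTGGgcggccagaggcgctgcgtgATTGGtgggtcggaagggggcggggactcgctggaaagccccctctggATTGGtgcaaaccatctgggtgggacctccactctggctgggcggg
RRM1, chr11:4094565-4094684, plus strand: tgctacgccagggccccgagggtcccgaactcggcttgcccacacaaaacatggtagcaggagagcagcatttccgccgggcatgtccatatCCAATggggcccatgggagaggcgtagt
MCM6, chr2:135876444-135876563, minus strand: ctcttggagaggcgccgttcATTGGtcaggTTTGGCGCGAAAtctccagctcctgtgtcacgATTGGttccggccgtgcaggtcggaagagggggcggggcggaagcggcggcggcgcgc
CLSPN holds 3 CCAAT matches in this stretch, MCM6 holds 2 beside its paired E2F match, and RRM1 holds 1 CCAAT match and no E2F match. CLSPN has the most of the members listed as higher with GW8510. CDC6 and E2F1 hold 2, and CHEK1, FANCA, GINS1 and RAD54L hold 1. CDC45, CDT1, FEN1, GINS2, RRM2 and TK1 hold no CCAAT match in the same 120 bases.

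In PD30 cells the whole set was higher than in the PD45 control. All 51 genes were in the PD30 table and all were listed as higher, where 8.24% of the genes the authors tested were. The members were put together with these results known, so this count is a description and nothing is read from it. The median ratio of mean signals was 3.01, from 1.38 to 8.21, beside 2.17 over all genes listed as higher. For 50 of the 51 the PD30 and control libraries did not overlap, against 93.6% of all genes in this table. In the limma re-test 47 members had enough signal to be fitted and all 47 were higher (adjusted p from 3.65e-08 to 0.0201). Of all fitted genes 52% passed as higher and 45.3% as lower. The fit holds only genes that the authors had listed, so this outcome was nearly fixed by the listing. BRCA2, E2F2, BLM and XRCC2 were below the signal minimum. CLSPN, ORC1, MCM10, RAD54L, FANCD2, BRIP1 and PRIM1 had control means below 1 (0.37 to 0.853) and passed this minimum only through their PD30 libraries. Nothing is read from their calls. PD30 replicate 3 was the highest library of its group in 32 of the 51 genes, with a median of 3.26 times the control mean against 2.87 and 2.77 for the other libraries. In bulk RNA, fewer cells in S phase and less mRNA per cell cannot be told apart.

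**Figure D1:**
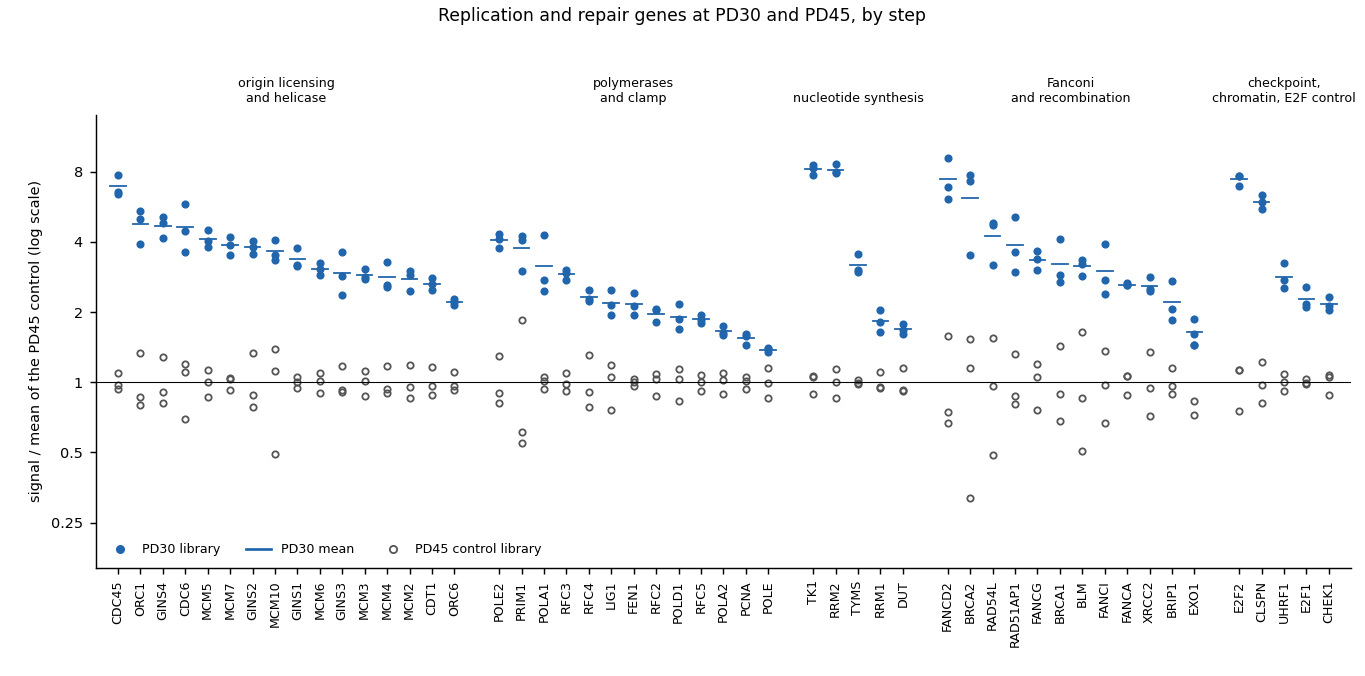
Signal of each of the 51 genes in every PD30 library (filled points, with the mean as a bar) and every PD45 control library (open points), divided by the mean of the control (log scale) and grouped by step. Every PD30 library lies above 1 for every gene, and EXO1 is the gene whose groups overlap.

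Among licensing and helicase genes the median ratio was 3.51, and the helicase subunits MCM2 to MCM7 lay close together, from 2.78 for MCM2 to 4.11 for MCM5. CDC45, which joins the MCM ring to form the active helicase, had signals of 9.84, 9.64 and 11.66 at PD30 and 1.64, 1.40 and 1.46 at PD45. That is a ratio of 6.92, the highest of this step, and the lowest PD30 library lay far above the highest control (log2 difference 2.18 ± 0.13 SE, limma adjusted p = 5.40e-07). GINS4, a subunit of the GINS complex, had 23.47, 19.03 and 21.95 at PD30 and 3.71, 5.86 and 4.16 at PD45, a ratio of 4.69. MCM10, which helps to open the origin, had 1.79, 1.71 and 2.08 against 0.25, 0.57 and 0.71, a ratio of 3.65 with control libraries that spread widely. ORC6, a subunit of the origin recognition complex, changed least in this step, with 11.59, 11.83 and 12.22 against 4.98, 5.98 and 5.19, a ratio of 2.21. Its partner ORC1, which is made and destroyed with each cycle, stood at 2.04 ± 0.334 against 0.427 ± 0.125 (SD, n = 3), a ratio of 4.78. The GINS subunits GINS1, GINS2 and GINS3 had ratios of 3.37, 3.79 and 2.94. The licensing factors CDC6 and CDT1 had ratios of 4.63 and 2.64. All 16 were called (limma, adjusted p from 2.53e-07 for MCM7 to 0.000172 for MCM10), where 52% of the fitted genes passed as higher and 45.3% as lower.

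Polymerase and clamp genes had the lowest median of the steps, 2.16. POLE2, a small subunit of polymerase epsilon, had 4.73, 4.12 and 4.51 at PD30 and 1.41, 0.89 and 0.98 at PD45, a ratio of 4.07. POLE, the catalytic subunit of the same enzyme, had 6.31, 6.5 and 6.56 against 5.40, 4.62 and 4.01. Its ratio of 1.38 was the smallest of all 51 genes, and the highest control library came within 1 signal unit of the lowest PD30 library. PRIM1, the primase catalytic subunit, had 2.56, 3.47 and 3.63 against 0.52, 1.57 and 0.47, a ratio of 3.77 in which 1 control library stood above the others. RFC3, a subunit of the clamp loader, had 6.52, 6.10 and 6.73 against 2.43, 2.03 and 2.18, a ratio of 2.91, while its partners RFC2, RFC4 and RFC5 had 1.97, 2.32 and 1.86. The clamp itself moved less: PCNA stood at 104 ± 6.12 against 67.4 ± 4.11, a ratio of 1.54. Within polymerase alpha the catalytic subunit POLA1 had a ratio of 3.16 and the accessory subunit POLA2 one of 1.66. POLD1, the catalytic subunit of polymerase delta, had a ratio of 1.91. FEN1 and LIG1, which trim and join lagging-strand fragments, had ratios of 2.16 and 2.19. All 13 were called (limma, adjusted p from 1.22e-05 for POLE2 to 0.0123 for POLE), beside 52% of the fitted genes as higher and 45.3% as lower.

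The 5 nucleotide genes split by size of change. TK1, the thymidine salvage kinase, had 74.56, 67.54 and 72.19 at PD30 and 9.14, 7.74 and 9.23 at PD45, a ratio of 8.21 (log2 difference 2.90 ± 0.09 SE). RRM2, the small subunit of ribonucleotide reductase that is present mainly in S phase, had 55.36, 54.72 and 59.87 against 7.92, 5.95 and 7.0, a ratio of 8.14. TYMS, thymidylate synthase, had 66.19, 67.29 and 79.05 against 21.85, 22.61 and 22.12, a ratio of 3.19. RRM1, the large reductase subunit, had 33.34, 36.62 and 41.18 against 22.35, 19.24 and 19.16, a ratio of 1.83. DUT, which removes dUTP, had a ratio of 1.69. The difference between the ratios of RRM1 and RRM2 was not tested. All 5 were called (limma, adjusted p from 3.65e-08 for TK1 to 8.20e-05 for DUT), beside 52% of the fitted genes as higher and 45.3% as lower.

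The Fanconi and recombination genes had a median ratio of 3.19. FANCD2, which is ubiquitinated at blocked forks, had 4.82, 4.29 and 6.43 at PD30 and 0.47, 1.11 and 0.52 at PD45, a ratio of 7.40 (log2 difference 1.87 ± 0.18 SE). RAD51AP1, a DNA-binding protein of homologous recombination, had 4.26, 7.33 and 5.19 against 1.26, 1.90 and 1.16, a ratio of 3.88. RAD54L, a DNA translocase of strand exchange, had 2.91, 1.95 and 2.96 against 0.95, 0.30 and 0.59, a ratio of 4.25. BRIP1, a helicase that binds BRCA1, had 1.42, 2.09 and 1.58 against 0.68, 0.74 and 0.88, a ratio of 2.21. FANCI, the partner of FANCD2, had a ratio of 3.01, BRCA1 one of 3.23, and FANCA and FANCG of the Fanconi core complex 2.62 and 3.35. The 3 genes of this step below the signal minimum did not overlap between the groups, and 93.6% of all genes listed for PD30 did not either. BRCA2, a protein of homologous recombination, had 1.14, 1.21 and 0.55 against 0.24, 0.18 and 0.05, a ratio of 6.17 with 1 low library in each group. BLM, a helicase that dissolves recombination intermediates, and XRCC2, which also acts in homologous recombination, had ratios of 3.14 and 2.60. EXO1, a nuclease of end resection, was the exception in which a control library (2.19) lay above a PD30 library (2.17). Its call (ratio 1.64, limma adjusted p = 0.0201) was lost without PD30 replicate 1, control replicate 2 or control replicate 3, with an adjusted p of 0.0662 to 0.0806.

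Of the control genes, CLSPN, the claspin adaptor of the replication checkpoint, had 2.04, 2.35 and 2.20 at PD30 and 0.45, 0.30 and 0.36 at PD45, a ratio of 5.94 (log2 difference 1.22 ± 0.11 SE). E2F2, an activating E2F factor, had 0.37, 0.41 and 0.41 against 0.06, 0.04 and 0.06, a ratio of 7.44 at a signal too low for the re-test. UHRF1, which brings DNA methylation to newly copied strands, had 28.17, 22.01 and 23.79 against 9.39, 7.98 and 8.71, a ratio of 2.84. E2F1 had 6.20, 6.06 and 7.37 against 2.96, 2.84 and 2.81, a ratio of 2.28. CHEK1, the checkpoint kinase that acts on stalled forks, had a ratio of 2.16. None of the 5 overlapped between the groups, and 93.6% of all genes listed for PD30 did not either. All 4 that could be fitted were called, beside 52% of the fitted genes as higher and 45.3% as lower.

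With GW8510 a part of the set rose and 1 gene fell. Of the 51 genes 14 were in the GW8510 table, 13 of them listed as higher (25.5% of the set, where 4.59% of all genes tested were) and 1 as lower (1.96%, where 7.26% were). All 51 had been listed as higher at PD30 against these same control libraries. These shares are therefore not independent of how the set was chosen and are a description. The other 37 members are not shown to be unchanged, among them all 6 MCM2-7 subunits, every polymerase subunit, PCNA, TYMS and UHRF1. By step, 5 of 16 licensing genes, 1 of 13 polymerase and clamp genes, 3 of 5 nucleotide genes, 2 of 12 Fanconi and recombination genes and 3 of 5 control genes were listed. The ratios of mean signals had a median of 1.71, beside 0.609 over all genes of the table and 1.60 over those listed as higher. The groups did not overlap for 11 of the 14, against 90.6% of the table. In the limma re-test 12 could be fitted, 10 were higher and 1 lower, where 37.9% and 57.5% of the fitted genes passed as higher and lower. Of the markers of cell types, COL3A1 (higher) and FAP (lower) were listed among 10 fibroblast markers, with a summed signal of 208 to 259 against 159 to 168. KRT19, of 6 epithelial markers, was higher (204 to 251 against 122.7 to 148), and CD68, of 5 leukocyte markers, was lower (25.3 to 31.0 against 44.3 to 54.7). No endothelial or smooth muscle marker was listed, and the part of these differences in the results was not tested.

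Of the licensing genes, CDC45 had signals of 3.86, 2.65 and 2.86 with GW8510 and 1.64, 1.40 and 1.46 in the control, a ratio of 2.08. CDC6, which loads the helicase, had 2.88, 2.08 and 2.72 against 1.42, 1.55 and 0.90, a ratio of 1.98. The GINS subunit GINS2 had 3.17, 2.45 and 2.74 against 2.0, 1.17 and 1.31, a ratio of 1.87. GINS1, another subunit of that complex, had 1.87, 1.89 and 1.43 against 0.98, 1.04 and 1.10, a ratio of 1.66. In these 4 genes the lowest treated library lay above the highest control, and 90.6% of the genes listed for GW8510 did not overlap either. CDT1, the second loading factor, had 3.06, 2.96 and 3.87 against 3.40, 2.60 and 2.82. Its libraries overlapped, the ratio was 1.12 and it did not pass the re-test (limma, adjusted p = 0.418), although the authors' deposited table lists it at a log2 fold change of 0.64. With libraries centred on their median it did pass (adjusted p = 0.00835). The other 4 passed (adjusted p from 0.00125 for CDC45 to 0.0106 for GINS1).

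FEN1, the flap nuclease of the lagging strand, was the 1 gene of the polymerase step, with 16.22, 15.27 and 15.04 against 10.22, 10.94 and 10.58, a ratio of 1.47 (limma, adjusted p = 0.00125). Among nucleotide genes, RRM2 had 19.55, 16.63 and 21.21 against 7.92, 5.95 and 7.0. TK1 had 25.82, 23.37 and 22.54 against 9.14, 7.74 and 9.23. Both had a ratio of 2.75, with no overlap and a clear gap between the groups (adjusted p = 4.14e-05 and 1.63e-05, limma). RRM1 went the other way: it had 11.86, 11.14 and 13.59 with GW8510 and 22.35, 19.24 and 19.16 in the control. Every treated library lay below every control library, a 1.66-fold lower level (log2 difference -0.69 ± 0.12 SE, limma adjusted p = 0.000505). With libraries centred on their median, RRM1 was still lower by a smaller log2 difference (-0.35, adjusted p = 0.00858), and the other 11 fitted members had log2 differences of 0.46 to 1.70. RRM1 and RRM2 therefore moved in opposite directions with GW8510 and in the same direction at PD30, comparisons that share their control libraries.

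**Figure D2:**
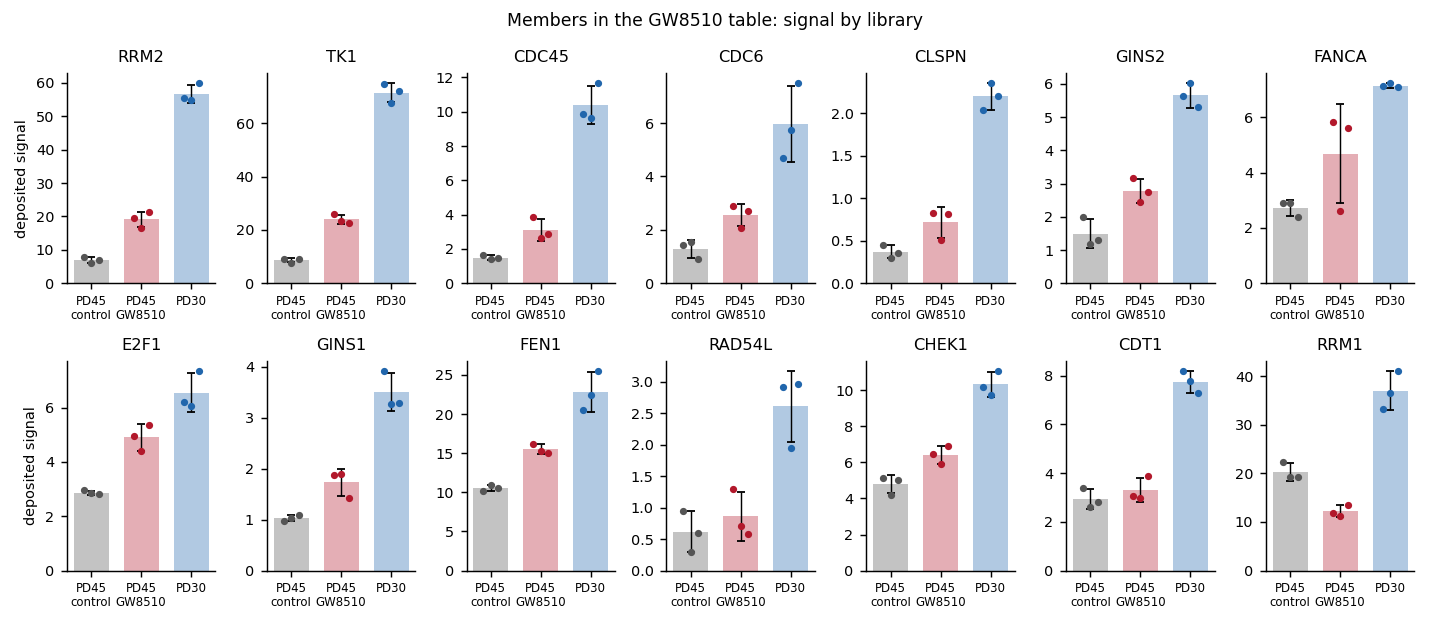
Deposited signal of the 14 members of the GW8510 table in every library (points) of the PD45 control, PD45 with GW8510 and PD30, with bars for the mean and error bars for the SD (n = 3). For 13 genes the GW8510 mean lies between the control and PD30, and RRM1 lies below both.

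FANCA, of the Fanconi core complex, had 5.82, 2.62 and 5.60 with GW8510 and 2.89, 2.89 and 2.39 in the control. GW8510 replicate 2 lay inside the control range, the ratio was 1.72, and the call (limma, adjusted p = 0.0347) was lost without GW8510 replicate 1 or 3 or any 1 of the 3 control libraries, with an adjusted p of 0.0543 to 0.131. RAD54L had 1.3, 0.70 and 0.58 against 0.95, 0.30 and 0.59, with overlapping libraries and a signal below the minimum of the re-test. Of the control genes, E2F1 had 4.96, 4.4 and 5.37 against 2.96, 2.84 and 2.81, a ratio of 1.71 (limma, adjusted p = 0.00153). CLSPN had 0.83, 0.51 and 0.81 against 0.45, 0.30 and 0.36, a ratio of 1.94 with no overlap, below the minimum of the re-test. CHEK1 had 6.45, 5.91 and 6.92 against 5.13, 4.21 and 5.05, a ratio of 1.34 (limma, adjusted p = 0.0234). The call of CHEK1 was lost without GW8510 replicate 1, GW8510 replicate 3 or control replicate 2 (adjusted p 0.0580 to 0.103). GW8510 replicate 2 was the lowest library of its group in 10 of the 14 genes, with a median of 1.49 times the control mean against 2.12 for replicate 1 and 1.85 for replicate 3.

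The 14 genes were also compared directly between GW8510 and PD30 libraries, which leaves out the shared control. This fit covered the 512 genes present in both tables with enough signal, and the control values were identical in both. These members are in the set because they were listed as higher at PD30, so a lower level with GW8510 was partly fixed by that choice. RAD54L and CLSPN also passed the signal minimum here only through their PD30 libraries. All 14 members were lower with GW8510 than at PD30 and all were called (limma, adjusted p from 4.67e-07 for TK1 to 0.0399 for FANCA), where 42% of the fitted genes were called lower, and nothing is read from that count. Without the signal minimum 13 were called. The median was 2.34-fold lower. CDC45 was 3.32-fold lower, TK1 2.99-fold, RRM2 2.96-fold and RRM1 3.04-fold, while E2F1 was closest to PD30, at 1.33-fold lower. The call of E2F1 (adjusted p = 0.0264) was lost without GW8510 replicate 1, GW8510 replicate 2 or PD30 replicate 3 (adjusted p 0.0531 to 0.105). That of FANCA was lost without GW8510 replicate 2 or any 1 of the 3 PD30 libraries (0.0622 to 0.0983), and with libraries centred on their median E2F1, FANCA and FEN1 did not pass.

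With siSRC2 none of the 51 genes was listed, where 2.64% of all genes tested were. This says nothing of smaller changes, since genes outside the table were not used. With siSRC4, 2 of the 51 were listed (3.92%, where 8.77% of all genes were), 1 higher and 1 lower (1.96% each, where 3.91% and 4.86% were). The groups did not overlap for 1 of these 2 genes, against 88.8% of the table. Both passed the re-test, where 40.3% and 53.4% of the fitted genes passed as higher and lower. GINS4 had 7.24, 5.99 and 6.41 with siSRC4 and 3.71, 5.86 and 4.16 in the control, a ratio of 1.43. The groups did not overlap, but the lowest siSRC4 library and the highest control differed by little (limma, adjusted p = 0.0282). CHEK1 had 4.22, 3.14 and 2.50 against 5.13, 4.21 and 5.05, a 1.46-fold lower level in which 1 siSRC4 library lay just above 1 control library (limma, adjusted p = 0.0304). Both calls were lost without control replicate 1 (adjusted p = 0.103 for GINS4 and 0.0870 for CHEK1) or control replicate 3 (0.0811 and 0.0813). That of GINS4 was also lost without siSRC4 replicate 1 (0.0736), and that of CHEK1 without siSRC4 replicate 2 (0.0764) or 3 (0.0938). Set directly against PD30, GINS4 was 3.28-fold and CHEK1 3.15-fold lower with siSRC4 (limma, adjusted p = 5.99e-07 and 9.86e-06, where 25.9% of 374 fitted genes were called lower). Both genes are in the set because they were listed as higher at PD30. A lower level than at PD30 was therefore partly fixed by that choice, and nothing is read from these calls. CHEK1 was the 1 member in 3 tables, higher at PD30 and with GW8510 and lower with siSRC4, and the difference between GW8510 and siSRC4 was not tested.

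**Figure D3:**
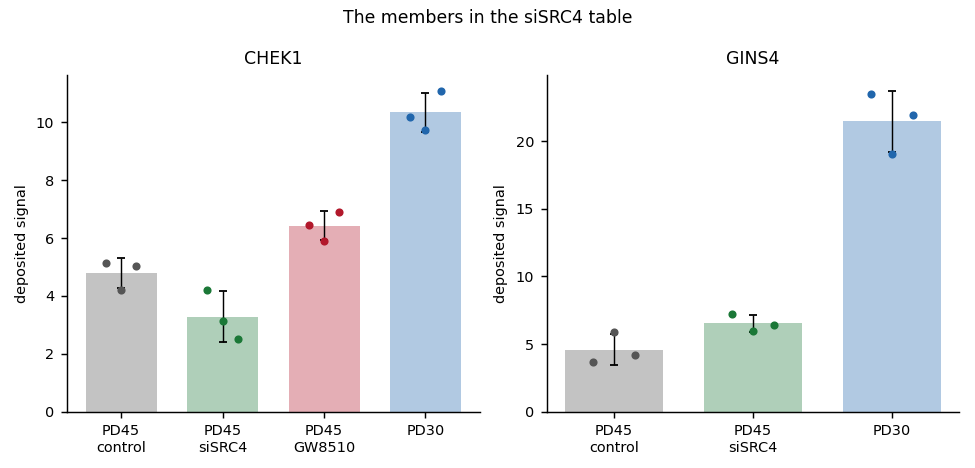
Deposited signal of CHEK1 and GINS4 in every library (points) of the groups whose tables list them, with bars for the mean and error bars for the SD (n = 3). In CHEK1 1 siSRC4 library lies level with the lowest control library, and in both genes PD30 lies far above the other groups.

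Other genes of the same pathways, 119 in 5 lists that leave out the members, were counted in the same tables. These lists too were chosen with earlier results of these data known, so their shares are a description. At PD30, 48 of the 119 were listed as higher (40.3%, where 8.24% of all genes were) and 4 as lower (3.36%, where 7.07% were). With GW8510, 9 were listed as higher (7.56%, where 4.59% were) and 8 as lower (6.72%, where 7.26% were), shares near those of all genes. No gene of these lists was listed for siSRC2, and 3 were for siSRC4, all lower. Per list at PD30, 12 of 21 licensing and fork genes rose with none lower, 5 of 17 polymerase and single-strand binding genes rose and 1 fell, 6 of 23 nucleotide genes rose and 1 fell, 14 of 31 Fanconi and recombination genes rose with none lower, and 11 of 27 checkpoint and E2F genes rose and 2 fell. In the limma re-test 45 of the 52 listed for PD30 could be fitted and all 45 passed, 41 higher and 4 lower. Some of the higher genes, MND1 and EME1 among them, had control means below 1 and passed the signal minimum only through PD30. Of all fitted genes 52% passed as higher and 45.3% as lower, so this outcome too was nearly fixed by the listing.

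**Figure D4:**
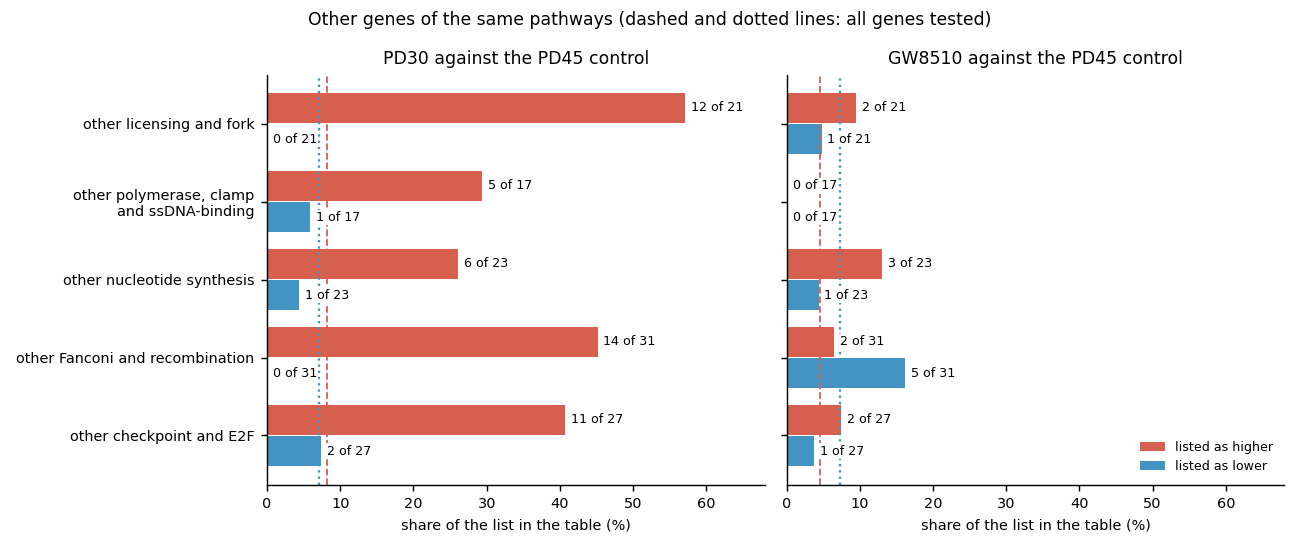
Share of each list of other pathway genes that the authors listed as higher or lower, with the counts, for PD30 (left) and GW8510 (right). The dashed and dotted lines mark the shares of all genes tested, and bars for higher genes at PD30 pass the line in all 5 lists.

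By the authors' fold change, the largest rises of the 5 lists at PD30 were those of TIMELESS (fork protection, signal ratio 4.01), TOP2A (DNA untangling, 7.16), SHMT1 (one-carbon supply for thymidylate, 3.18), MND1 (recombination, 6.08) and E2F8 (an E2F repressor, 9.86 at a signal of 0.460 against 0.0467). By signal ratio the polymerase POLQ, which joins broken ends, stood above TOP2A in its list (8.33, at 0.833 against 0.1). The falls were RRM2B, POLH, E2F3 and E2F7. RRM2B, the p53-induced small subunit of ribonucleotide reductase, had 12.73, 14.90 and 12.10 at PD30 and 39.53, 35.73 and 31.29 at PD45, 2.68-fold lower. It was also lower with GW8510, at 22.14, 20.95 and 17.58, or 1.76-fold (limma, adjusted p = 0.000324). The E2F repressor E2F7 was lower in both comparisons as well, 1.73-fold at PD30 and 1.96-fold with GW8510. With GW8510, 5 of 31 Fanconi and recombination genes were listed as lower (16.1%, where 7.26% of all genes tested were). In the same list 2 were listed as higher (6.45%, where 4.59% were). The lower genes, named here after their values were seen, were NBN (2.0-fold), RMI1 (1.75-fold), FANCL (1.59-fold), WRN (1.57-fold) and RBBP8. POLH, a polymerase that copies past UV damage, was 1.59-fold and E2F3 1.60-fold lower at PD30.

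Of the genes in at least 2 tables, ASF1B, a histone chaperone of new chromatin, had a ratio of 8.40 at PD30 and 3.16 with GW8510 (5.10, 3.72 and 5.16 against 1.47, 1.15 and 1.80). CHAF1B, of the chromatin assembly factor that receives those histones, had 3.05 and 1.75, SHMT1 3.18 and 1.69, and the nuclease subunit EME1 3.76 and 2.31. These 4 passed the re-test in both comparisons, where 52% (PD30) and 37.9% (GW8510) of the fitted genes passed as higher. EME1 had a control mean of 0.643 and passed the signal minimum only through its PD30 and GW8510 libraries. CHTF18, a clamp loader subunit, had 2.47 at PD30 and 1.20 with GW8510, where its libraries overlapped (limma, adjusted p = 0.272). TICRR, which is needed for origin firing, had 2.58 and 1.52 at signals under the minimum of the re-test. RBBP8, which starts the resection of DNA ends, was lower with GW8510 (1.45-fold) and with siSRC4 (1.47-fold, limma adjusted p = 0.0246).

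The authors' fold change and the ratio of deposited signals differed for a few genes. For PD30 the median difference over the 51 genes was 0.03 on the log2 scale, from -0.30 to 1.11. RAD54L had an authors' log2 fold change of 3.20 in the authors' deposited table and a log2 signal ratio of 2.09. EXO1 stood at 1.59 there and at 0.71 by signal. MCM10, RAD51AP1 and BLM came next, with differences of 0.53, 0.51 and 0.49, while E2F2, at a very low signal, differed by 0.08. For GW8510 the median difference over the 14 genes was 0.12, equal to that over the table (0.12), and RAD54L again differed most, 1.69 in the authors' deposited table against 0.49. CDT1 followed, at 0.64 against 0.17. For the other 12 the difference was at most 0.26, and TK1 and RRM2 stood at 1.56 and 1.54 in the authors' deposited table against 1.46 each by signal.

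**Figure D5:**
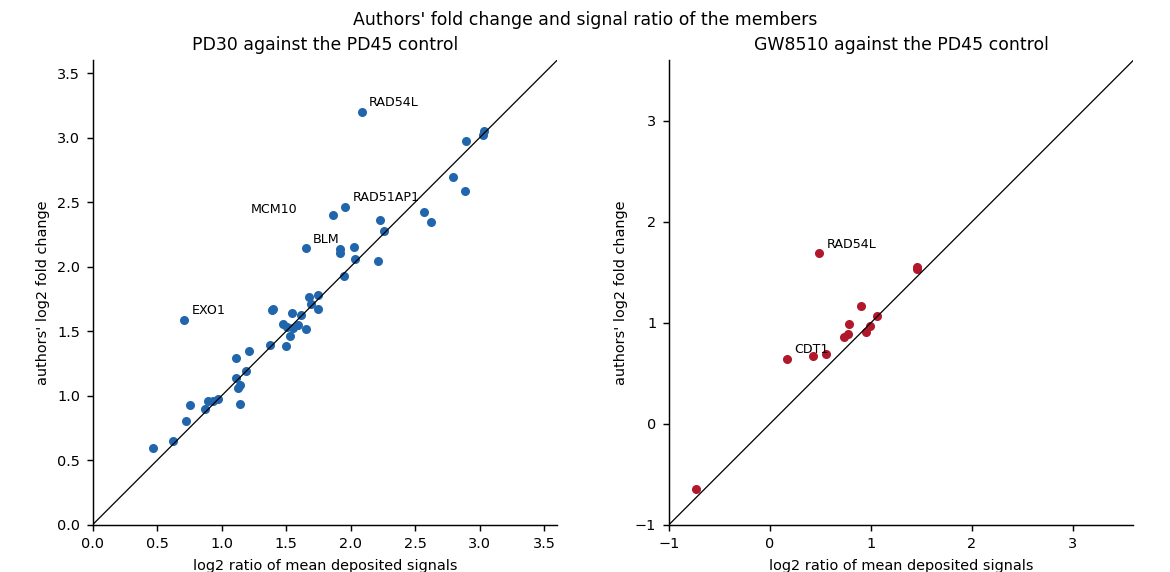
Authors' log2 fold change against the log2 ratio of mean deposited signals for the 51 members at PD30 (left) and the 14 with GW8510 (right), with the line of equality. Named points differ by more than 0.4, and RAD54L stands farthest from the line in both.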

How the data were processed

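DESeq2, edgeR, RSEM, StringTie, HISAT2 and CASAVA appear in the submitters' processing notes with no role given, beside the mouse build GRCm38, although the gene identifiers are human. Per the file headers, the 4 deposited tables hold a normalized signal per gene and library, the authors' fold ratio and log2 fold change, and their p-value, raw and adjusted. Tables were assigned to groups by their library columns: the table headed siSRC2 holds siSRC4 libraries, and the one headed siSRC holds siSRC2. The number of genes tested was taken from the ratio of adjusted p to p in the first row. Depth is unknown, and replicate number limits precision (3 per group, smallest two-sided exact permutation p 0.1). limma 3.58.1 (R 4.3.3, mean-variance trend, Benjamini-Hochberg over all fitted genes of a table, threshold 0.05) was run on 6 libraries per comparison after a test on simulated data. It re-tests genes that the authors selected and is no independent evidence. Ratios, SDs and motif counts used Python 3.11.15, pandas 2.3.3 and numpy 2.4.6.

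The members and lists were chosen with earlier results of these data known. Genes with every library printed were those in the GW8510 or siSRC4 table and, for PD30, the 3 largest and the 1 smallest authors' fold of each step. Other pathway genes were named if in at least 2 tables or if they were the largest rise or fall of a list at PD30. A gene that this rule names is not reported here. MCM, PCNA, ORC1 and further members given by ratio, the printed MCM and PCNA promoters, BRCA2 and EXO1 were chosen after values were seen. Same-numbered group and control libraries deviated together for siSRC4 (correlations 0.12, 0.11 and 0.14) and for siSRC2 (0.09, 0.09 and 0.22). Each of these libraries correlated best with the control of its own number, which the labels do not explain. For GW8510 (0.11, 0.02 and 0.04) and PD30 (0.01, -0.03 and -0.11) no library correlated best with its own number.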

Additional observations from a re-analysis of the deposited data

How the results depend on the processing

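The re-test was repeated with other pseudocounts, signal minimums, variance model, centring, a replicate block and each library left out. With a mean signal of at least 5 required, fewer members could be fitted and 28 passed for PD30, 5 for GW8510, 1 for siSRC4 and 9 for GW8510 against PD30. With each library left out in turn the number passing ranged from 46 to 47 for PD30, 9 to 11 for GW8510, 0 to 2 for siSRC4, 12 to 14 for GW8510 against PD30 and stayed at 2 for siSRC4 against PD30. The replicate block left the numbers at 47, 11, 2, 14 and 2. For siSRC4 the block changed no call. In every comparison the labels give the libraries only a shared number, although each siSRC4 and siSRC2 library correlated best with the control of its own number. Centring libraries on the median of the fitted genes, which are selected, moved the median log2 difference from -0.54 to -0.20 for GW8510 and from 0.45 to 0.32 for PD30. It brought CDT1 past the threshold with GW8510 (adjusted p = 0.00835, limma) and EXO1 for PD30 (0.0604) and E2F1, FANCA and FEN1 in GW8510 against PD30 (0.726, 0.273 and 0.111) no longer passed. FANCA also did not pass there without a signal minimum (0.0564). Of the values of the single genes printed with every library under the naming rule, tested under these settings, 587 kept their side of the threshold, 26 no longer passed, 1 newly passed and none changed sign. siSRC2 had no listed member and gave no value. Depth could not be examined.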
